A study of Homo sapiens with 24 samples.

Results

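The glucose and lactate transporters described here are 7 genes, chosen by symbol: SLC2A1, SLC2A3, SLC2A10 and SLC2A12 of the SLC2A glucose transporter family, SLC16A1 and SLC16A3 of the SLC16A monocarboxylate transporter family, and BSG, which encodes the chaperone basigin. They are 7 of the 23106 gene symbols counted in every library. PolyA RNA-seq was performed in A549 cells (lung cancer, F12K medium), HCT-116 cells (colorectal cancer, McCoy's 5a medium), PC3 cells (prostate cancer, F12K medium) and T47D cells (breast cancer, DMEM medium). Each line was kept in 21% oxygen (normoxia) or in 0.5% oxygen for 16 h (hypoxia), with 3 replicates in each of the 8 groups. Cells were otherwise untreated, all media held serum, and each tumor type is represented by 1 cell line. Line and medium cannot be told apart, except that A549 and PC3 shared a medium. The sources do not say whether replicates were separate cultures, so p values measure the spread between these samples, which may be technical.

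Tumor cells take up glucose through facilitative carriers of the SLC2A (GLUT) family and, when glycolysis runs without full oxidation, export the resulting lactate with a proton through monocarboxylate carriers (MCT) of the SLC16A family. GLUT1 (SLC2A1) is the broadly expressed carrier, GLUT3 (SLC2A3) has a high affinity for glucose and is known from neurons, and GLUT10 (SLC2A10) and GLUT12 (SLC2A12) belong to a separate branch of the family. MCT1 (SLC16A1) carries lactate in both directions, whereas MCT4 (SLC16A3) is known for lactate export from glycolytic cells. Basigin (BSG, CD147) is the single-pass membrane partner that brings both MCT1 and MCT4 to the cell surface. In hypoxia, the HIF transcription factors bind the short core of the hypoxia response element, and glycolytic genes are among their best known targets.

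Library totals ranged from 22698584 to 62850747 counts, so that the floor used here of 3 counts in a library corresponded to 0.0477 to 0.132 CPM, where CPM are counts rescaled to a common library size. Hypoxia was visible in each line: the known hypoxia-responsive genes CA9, NDRG1, EGLN3, ANKRD37 and ADM were all called upregulated in all 4 lines, with a median log2 fold change of 4.63 in A549, 3.53 in HCT-116, 1.5 in PC3 and 3.98 in T47D. NDRG1, ANKRD37 and ADM belong to the shared HIF target set of the paper, which was chosen partly by upregulation in these same 4 lines. The paper lists EGLN3 among genes bound by HIF and induced in all but 1 of its lines, which include these 4. The calls of NDRG1, ANKRD37, ADM and EGLN3 here were therefore largely fixed in advance. With 1 library left out, calls were lost for ANKRD37 in T47D (without replicate 1 or 2 of either state, highest adjusted p 0.134), ANKRD37 in PC3 (without hypoxia replicate 1, 0.0563) and EGLN3 in PC3 (without replicate 1 of either state, highest 0.0577), and for none of the others in any line. Calls required an adjusted p under 0.05 in edgeR's quasi-likelihood test and a fold change over 1.2. Of 5 markers fixed for each line, 5 exceeded a mean of 1 CPM in T47D, 3 in PC3, 2 in HCT-116 and 1 in A549. The lung markers NKX2-1, SFTPB and SFTPC were near 0 in A549, as were the intestinal markers CDH17, LGALS4 and VIL1 in HCT-116 and the prostate marker KLK3 in PC3. The summed level of 5 markers of leukocytes, T cells, endothelium, fibroblasts and hepatocytes stayed at or under 3.49 CPM in every library. In bulk RNA, fewer cells with a transcript and less transcript in each cell cannot be told apart.

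Promoter sequences are shown for the genes whose transcripts rose in 2 or more lines and were in the RefSeq table, and for SLC2A10, which was not called in either line that expressed it. RefSeq windows (GRCh38.p14, from 250 bases before to 50 bases after an annotated start) were found for 5 of the 7 genes; SLC2A3 and SLC16A1 were not in the table. Each window was searched on both strands for the 2 forms of the hypoxia response element core, ACGTG and GCGTG, and matches are in capitals, those on the opposite strand reading CACGT or CACGC. All sequences run 5′ to 3′ on the strand of the gene.

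SLC2A1 (chr1:42958819-42959118, minus strand): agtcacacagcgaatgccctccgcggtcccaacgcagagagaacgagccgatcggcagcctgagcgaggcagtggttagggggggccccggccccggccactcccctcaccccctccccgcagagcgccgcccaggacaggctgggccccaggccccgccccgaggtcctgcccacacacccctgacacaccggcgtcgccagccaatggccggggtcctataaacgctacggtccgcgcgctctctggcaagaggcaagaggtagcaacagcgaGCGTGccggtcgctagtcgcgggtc
SLC2A10 (chr20:46709399-46709698, plus strand): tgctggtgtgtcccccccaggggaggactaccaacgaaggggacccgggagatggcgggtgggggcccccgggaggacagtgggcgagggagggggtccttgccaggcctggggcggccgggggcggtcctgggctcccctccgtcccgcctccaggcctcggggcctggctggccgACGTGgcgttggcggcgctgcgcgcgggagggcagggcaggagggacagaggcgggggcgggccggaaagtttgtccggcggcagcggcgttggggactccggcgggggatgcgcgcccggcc
SLC16A3 (chr17:82228792-82229091, plus strand): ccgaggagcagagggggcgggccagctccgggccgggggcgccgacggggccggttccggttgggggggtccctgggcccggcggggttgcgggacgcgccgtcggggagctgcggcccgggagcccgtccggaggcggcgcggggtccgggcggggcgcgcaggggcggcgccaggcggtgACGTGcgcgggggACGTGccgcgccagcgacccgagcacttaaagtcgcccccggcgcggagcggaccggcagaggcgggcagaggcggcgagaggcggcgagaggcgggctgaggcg
BSG (chr19:572346-572645, plus strand): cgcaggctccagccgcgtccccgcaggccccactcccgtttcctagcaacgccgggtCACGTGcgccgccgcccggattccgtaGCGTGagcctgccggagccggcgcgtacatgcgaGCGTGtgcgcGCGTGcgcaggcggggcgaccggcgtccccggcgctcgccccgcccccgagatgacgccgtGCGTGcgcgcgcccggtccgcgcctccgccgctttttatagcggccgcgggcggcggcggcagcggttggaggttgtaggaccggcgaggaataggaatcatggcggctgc

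The SLC2A1 window held 1 GCGTG, 25 bases after the start. The SLC2A10 window held 1 ACGTG, 73 bases before its start. The printed SLC16A3 window held 2 ACGTG, 68 and 55 bases before the start. BSG had 6 matches in its printed window: 4 GCGTG on the plus strand, and 2 ACGTG that overlap each other on opposite strands as the palindrome CACGTG. Of the other 4 RefSeq windows of SLC16A3, 1 held 3 GCGTG, 1 held 1 GCGTG and 2 held no match, and neither the other BSG window nor the SLC2A12 window held a match.

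For comparison, ACGTG was found in 21.4% and GCGTG in 36.5% of 35116 RefSeq windows of 300 bases, and either form in 48.4%. At least 2 matches were found in 23.1% of windows and at least 6 in 0.923%. These shares are per window. SLC16A3 and BSG also had other windows, some without a match, and those printed hold matches, so the shares do not apply to these genes as a whole. A match describes the letters of these windows only, and no binding was measured in these libraries.

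**Figure D1:**
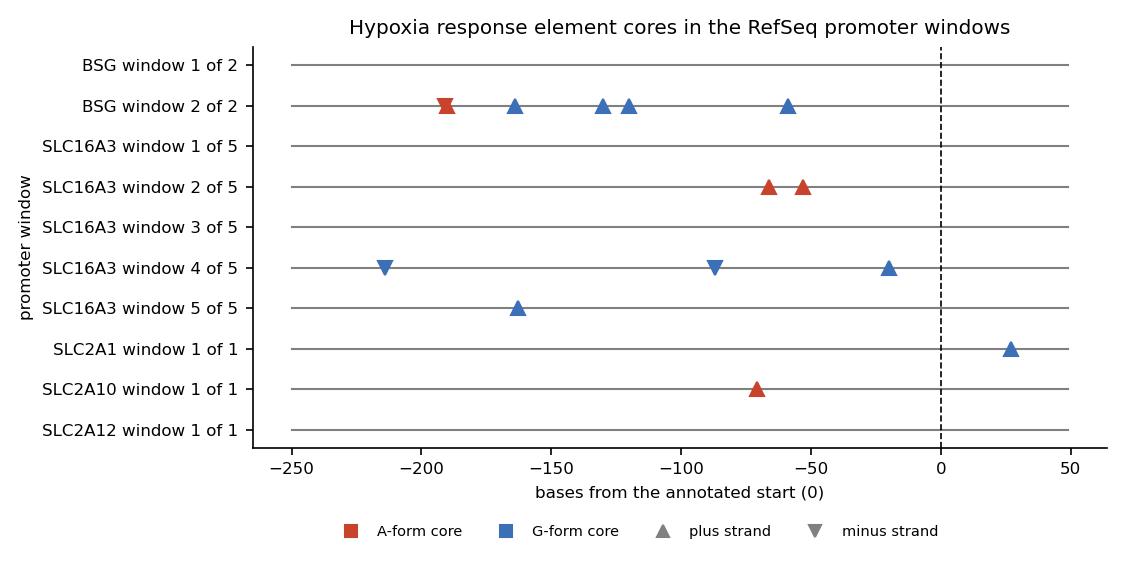
Matches to the hypoxia response element core in the RefSeq promoter windows, by distance in bases from the annotated start (x axis) and window (y axis). Red marks ACGTG and blue GCGTG, triangles point up for the plus strand of the gene and down for the opposite strand; the BSG window with 6 matches is the densest and SLC2A12 has none.

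Across the 4 lines, the 7 genes gave 28 gene and line combinations, of which 24 passed the filter on low counts. In 13 of these the transcript was called upregulated in hypoxia, in 11 it was not called, and in 0 was it called downregulated. DESeq2 also called 0 downregulated, and 0 combinations fell at an unadjusted p under 0.05. In A549, 5 of 6 tested genes were called upregulated, against a background of 17.6% of all tested genes. The count was 4 of 6 in HCT-116 (background 23.3%), 2 of 6 in PC3 (background 16.6%) and 2 of 6 in T47D (background 6.55%). The T47D fit left out the pairing of libraries by replicate number. A fit blocked by replicate added BSG to the T47D calls and called 1281 of 14085 genes upregulated. The median log2 fold change of the tested genes was 1.49, 1.33, 0.23 and 0.57 in A549, HCT-116, PC3 and T47D, against −0.01, −0.03, −0.01 and −0.01 over all tested genes. SLC2A1 and SLC16A3 were the genes called in all 4 lines. Both belong to the shared HIF target set that the paper chose partly by upregulation in these same lines, so these calls were largely fixed in advance. SLC2A10 did not pass the filter in A549 and HCT-116, and SLC2A3 did not pass in PC3 and T47D, so these 4 combinations carry no test.

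**Figure D2:**
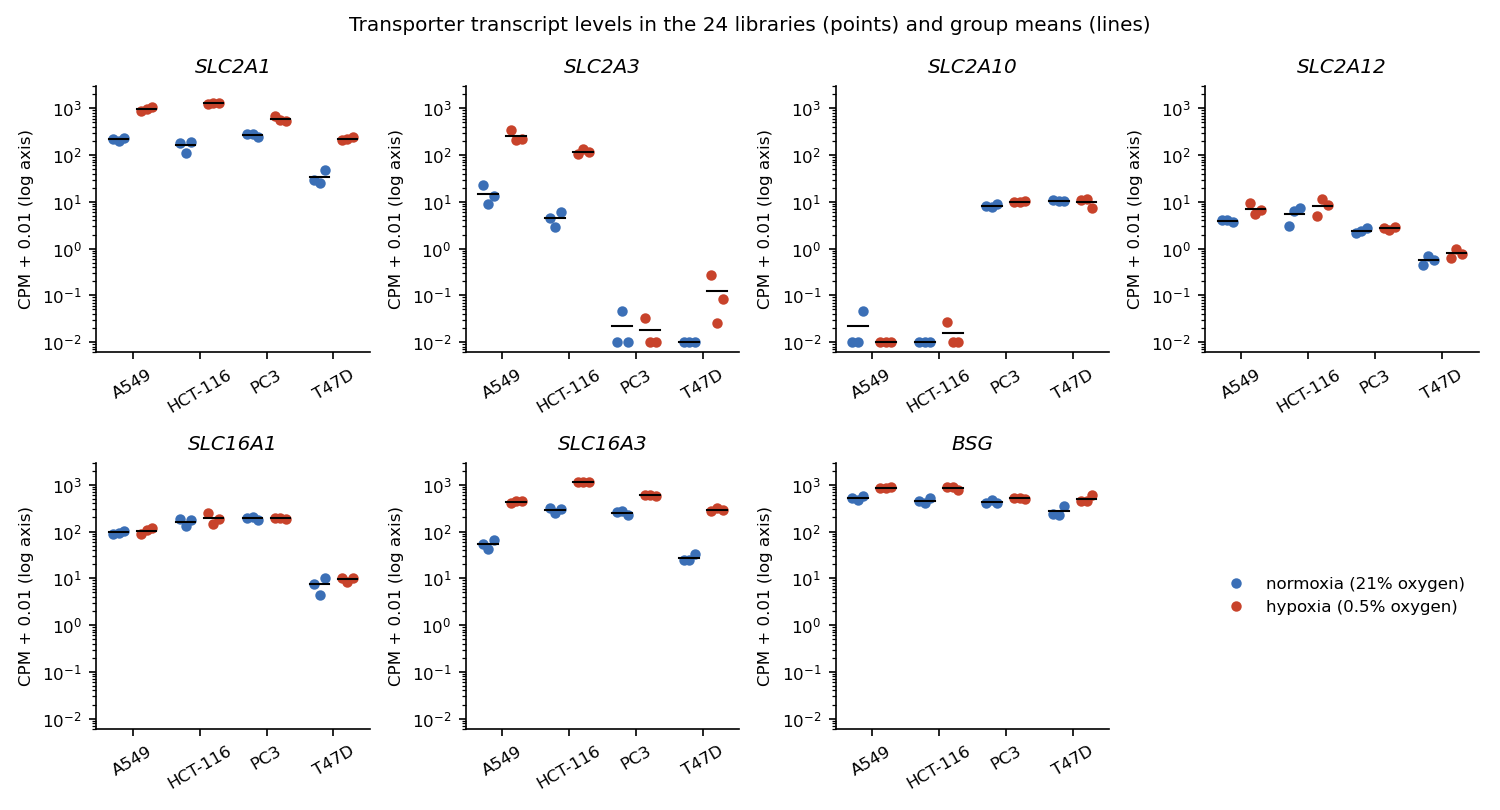
Transcript level of each gene in the 24 libraries, as TMM-normalized CPM plus 0.01 on a log axis, by cell line; blue points are normoxic and red points hypoxic libraries, and black lines are means of 3. SLC2A1 and SLC16A3 shift upward in all 4 lines, while SLC2A3 and SLC2A10 are each near 0 in the pair of lines where the other is present.

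SLC2A1 (GLUT1, chr1:43391024-43424564 in GRCh37, minus strand) carries basal glucose uptake in most cells. It was upregulated by hypoxia in every line. In A549, its level was 226, 202 and 229 CPM in the normoxic libraries and 880, 955 and 1068 CPM in the hypoxic libraries. HCT-116 started at 178, 112 and 194 CPM and reached 1262, 1274 and 1308 CPM, the highest SLC2A1 levels of the series. In PC3 the values were 278, 280 and 239 CPM in normoxia and 678, 555 and 545 CPM in hypoxia. T47D started lowest, at 29.8, 25.3 and 49.1 CPM, with the last of these replicates standing above the other 2, and reached 210, 220 and 244 CPM. Normoxic and hypoxic libraries did not overlap in any line, which held for 48.1%, 60.3%, 51.4% and 32.5% of all tested genes in A549, HCT-116, PC3 and T47D.

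The log2 fold change of SLC2A1 was 2.88 (SE 0.25, edgeR adjusted p = 1.6e-05) in HCT-116 and 2.62 (SE 0.25, edgeR adjusted p = 4.65e-05) in T47D. In A549 it was 2.14 (SE 0.12, edgeR adjusted p = 2.5e-07). It was smallest in PC3, at 1.11 (SE 0.11, edgeR adjusted p = 0.000493). As fold changes, these were 7.35 (95% interval 5.08 to 10.6), 6.16 (4.21 to 9.01), 4.4 (3.69 to 5.24) and 2.15 (1.81 to 2.56).

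The hypoxia effect on SLC2A1 differed between lines. The interaction of cell line and hypoxia, tested in 1 edgeR fit of all 24 libraries, had an adjusted p of 0.000572, and 18.3% of 16089 genes passed that test. The effect in PC3 was smaller than in HCT-116 by 1.83 on the log2 scale (SE 0.29, edgeR adjusted p = 0.000304) and smaller than in T47D by 1.54 (SE 0.29, edgeR adjusted p = 0.00299). These pairwise tests called 14.9% and 2.25% of all genes. The effect in A549 was smaller than in HCT-116 by 0.85 (SE 0.28, edgeR adjusted p = 0.0426, 16.7% of all genes called). The differences between A549 and PC3 (0.99, 95% interval 0.40 to 1.57, edgeR adjusted p = 0.119), A549 and T47D (−0.55, interval −1.14 to 0.04) and HCT-116 and T47D (0.30, interval −0.29 to 0.89) did not pass. Without the libraries numbered 2, the adjusted p of the SLC2A1 interaction was 0.0744. Without those numbered 1 it was 0.0418, and PC3 then did not differ from T47D at the threshold (edgeR adjusted p = 0.169).

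Ordered by level, SLC2A1 was highest in hypoxic HCT-116 (mean 1281 CPM ± 24.1, SD, n = 3) and hypoxic A549 (967 CPM ± 94.3), neighbors that did not differ at the threshold. Hypoxic PC3 followed at 593 CPM ± 74.2, below hypoxic A549 (edgeR adjusted p = 0.0037). Normoxic PC3 (266 CPM ± 23.1), hypoxic T47D (225 CPM ± 17.5), normoxic A549 (219 CPM ± 14.5) and normoxic HCT-116 (161 CPM ± 43.2) came next, and no neighbors among them differed at the threshold. T47D therefore reached in hypoxia a SLC2A1 level within the range that the other lines held in normoxia. Normoxic T47D was lowest, at 34.7 CPM ± 12.7.

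SLC2A3 (GLUT3, chr12:8071826-8171603 in GRCh37, minus strand) had the largest fold change of the 7 genes, in the 2 lines where it was present. In A549 it was at 22.7, 8.97 and 13.0 CPM in normoxia and 340, 212 and 224 CPM in hypoxia. In HCT-116 it rose from 4.55, 2.93 and 5.98 CPM to 105, 132 and 115 CPM. The lowest hypoxic library was thus far above the highest normoxic library in both lines. The log2 fold change was 4.12 (SE 0.31, edgeR adjusted p = 3.21e-06) in A549 and 4.59 (SE 0.26, edgeR adjusted p = 1.23e-06) in HCT-116, and the difference between them (−0.58, 95% interval −1.50 to 0.33) did not pass.

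In the other 2 lines SLC2A3 was close to absent. PC3 had at most 2 counts in a normoxic library and at most 1 in a hypoxic library. T47D had 0 counts in all 3 normoxic libraries and 16, 1 and 4 counts in the hypoxic libraries, so that 2 of 3 hypoxic libraries exceeded the floor of 3 counts. Against that floor in T47D, normoxic SLC2A3 was at least 277-fold higher in A549 and at least 83.6-fold higher in HCT-116. SLC2A3 has a near-identical paralog, SLC2A14, and reads that fit both would have been lost with the non-unique fragments. SLC2A14 itself had at most 18 counts in any library.

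SLC2A10 (GLUT10, chr20:45338288-45364986 in GRCh37, plus strand) was present in the lines that lacked SLC2A3. It had at most 2 counts in any A549 library and at most 1 in any HCT-116 library. In PC3 it was at 8.16, 7.64 and 8.81 CPM in normoxia and 9.89, 9.75 and 10.3 CPM in hypoxia, states that did not overlap (51.4% of all tested genes in PC3). In T47D it was at 10.8, 10.6 and 10.3 CPM in normoxia and 11, 11.4 and 7.41 CPM in hypoxia, states that did. The log2 fold change was 0.23 in PC3 (95% interval of the fold change 0.959 to 1.43, edgeR adjusted p = 0.197) and −0.18 in T47D (interval 0.632 to 1.24, edgeR adjusted p = 0.631). Against the floor in normoxic HCT-116, SLC2A10 was at least 145-fold higher in normoxic PC3 and at least 188-fold higher in normoxic T47D. Over the 24 libraries, the log2 levels of SLC2A3 and SLC2A10 had a Pearson r of −0.93, which describes the split between the 2 pairs of lines.

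SLC2A12 (GLUT12, chr6:134308719-134373762 in GRCh37, minus strand) was expressed at low levels. In A549 it was at 3.99, 4.14 and 3.77 CPM in normoxia and 9.33, 5.48 and 6.71 CPM in hypoxia, and the states did not overlap (48.1% of all tested genes in A549). Its log2 fold change there was 0.85 (SE 0.21, edgeR adjusted p = 0.00871), but 0.0571 was the adjusted p when all 24 libraries were fitted together. It was not called in HCT-116 (log2 fold change 0.45, 95% interval of the fold change 0.822 to 2.28), PC3 (0.13, interval 0.799 to 1.49) or T47D (0.38, interval 0.654 to 2.57). The interaction with cell line did not pass (adjusted p = 0.64). The gene shares 2852 exon bases with TBPL1 on the opposite strand, and the strand setting of the counting is not given in the sources used here, so that reads of the overlap cannot be assigned with certainty.

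Levels per length, as RPKM from the union of GENCODE exons, gave the make-up of the SLC2A family of 14 genes. The summed RPKM of the family rose from 49.6 ± 2.9 (SD, n = 3) to 202 ± 11.3 in A549, from 33.7 ± 6.63 to 220 ± 4.1 in HCT-116, from 53.4 ± 4.06 to 106 ± 11.7 in PC3 and from 21.8 ± 3.13 to 59.2 ± 4.35 in T47D. SLC2A1 made up 66.7% of the sum in normoxic A549, 71.5% in HCT-116 and 75.2% in PC3, but 23.6% ± 5.09 in T47D. In normoxic T47D the largest share was that of SLC2A6 (34.4% ± 1.78), which encodes a lysosomal glucose transporter, and SLC2A8, an intracellular carrier, held 20.7% ± 0.758. In hypoxia the SLC2A1 share was 72.3% ± 5.05 in A549, 88.1% ± 0.338 in HCT-116, 84.1% ± 1.43 in PC3 and 57.3% ± 0.966 in T47D. SLC2A3 went from 4.1% to 17.7% of the sum in A549 and from 1.8% to 7.36% in HCT-116. With the longest transcript as the length, the SLC2A1 share in T47D was 30.1% in normoxia and 67.4% in hypoxia, and in normoxia SLC2A1 was then ahead of SLC2A8 (24.7%) and SLC2A6 (23.2%).

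**Figure D3:**
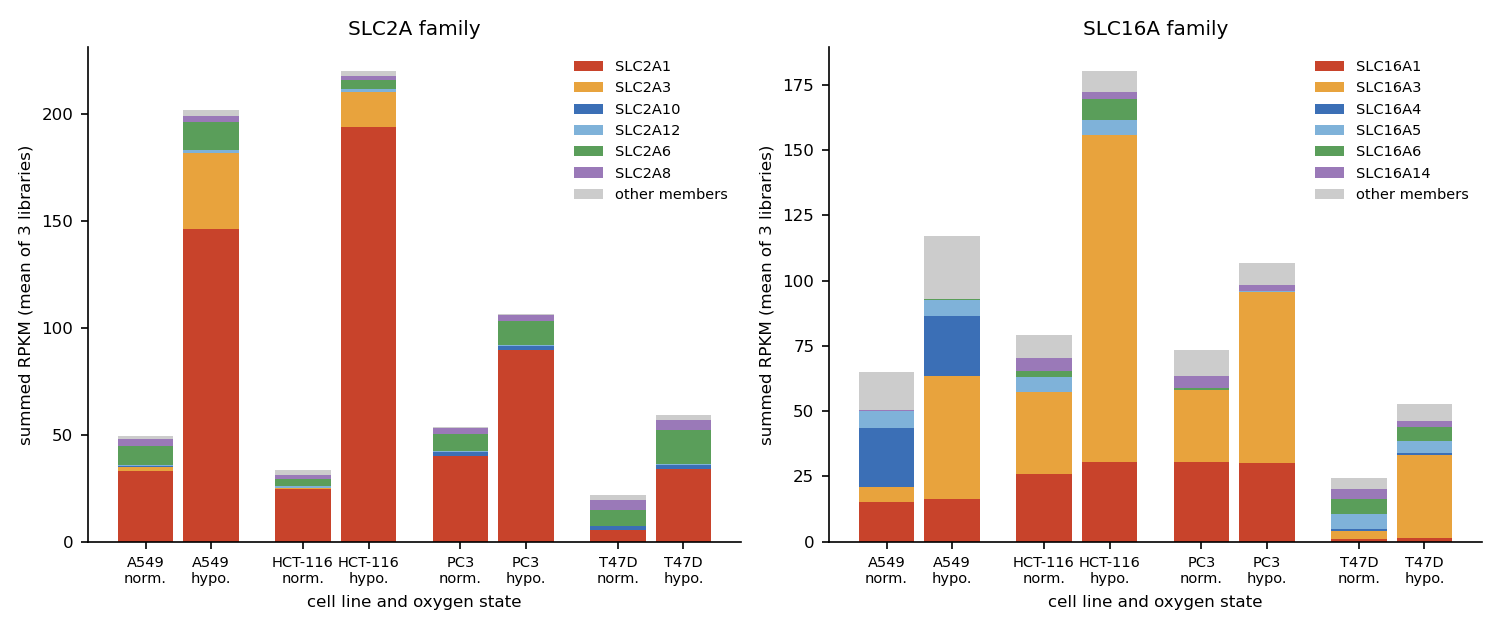
Summed RPKM (mean of 3 libraries) of the SLC2A family (left) and the SLC16A family (right) in each line and oxygen state, stacked by gene. SLC2A1 fills most of the SLC2A bar in every group but normoxic T47D, and the SLC16A bar grows in hypoxia mainly through SLC16A3.

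Of the 10 other SLC2A genes, 3 of 5 tested were called upregulated in A549 (SLC2A5, SLC2A6 and SLC2A13), 0 of 6 in HCT-116, 2 of 4 in PC3 (SLC2A6 and SLC2A11) and 1 of 5 in T47D (SLC2A6), against 17.6%, 23.3%, 16.6% and 6.55% of all tested genes, and in 0 lines was any called downregulated. At an unadjusted p under 0.05 and with DESeq2, these counts were the same. SLC2A5 was near 0 in A549, with 0 to 3 counts in normoxic and 12 to 22 in hypoxic libraries (means 0.024 and 0.333 CPM). It passed the filter there through the hypoxic group, so its call is void. Genes of these lists other than those called in 3 or more lines, or in opposite directions, are named after their values were seen. SLC2A6 was at 31 CPM ± 3.4 in normoxic and 45.8 CPM ± 4.26 in hypoxic A549, 29.1 CPM ± 2.7 and 39 CPM ± 3.49 in PC3, and 26.4 CPM ± 2.34 and 57.4 CPM ± 5.84 in T47D. Its log2 fold change was 0.56, 0.37 and 1.04 in these lines (edgeR adjusted p = 0.00392, 0.024 and 0.00498). In PC3 the SLC2A6 call was lost without hypoxia replicate 1 or 2 (highest adjusted p 0.0992), and in T47D without normoxia replicate 1 (0.0568). The SLC2A11 call in PC3 was lost without hypoxia replicate 2 or 3 or normoxia replicate 1 or 3 (highest adjusted p 0.095). The 6 sodium-coupled glucose transporters of the SLC5A family were low throughout: the mean of each stayed under 1 CPM except SLC5A11, which carries myo-inositol as well as glucose, in normoxic A549. SLC5A11 was called downregulated there, to 0.774 CPM (log2 fold change −1.41, edgeR adjusted p = 0.00447), as 1 of 2 tested genes of this list, against 17.8% of all tested genes. In HCT-116 it was also the 1 called downregulated of 2, against 27.0% of all tested genes. That call was lost with DESeq2 and on leaving out any library but hypoxia replicate 3 (highest adjusted p 0.159). The HCT-116 libraries held 18 to 30 counts of SLC5A11 in normoxia and 2 to 7 in hypoxia. It passed the filter there through the normoxic group, so this call is void too. PC3 and T47D had 0 and 1 tested genes and none called, with 0 at an unadjusted p under 0.05 and 0 by DESeq2.

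SLC16A3 (MCT4, chr17:80175810-80219005 in GRCh37, plus strand), the lactate exporter, was the other gene upregulated in all 4 lines. In A549 it was at 53.0, 42.6 and 65.3 CPM in normoxia and 403, 445 and 453 CPM in hypoxia. HCT-116 held 318, 246 and 309 CPM in normoxia and reached 1169, 1149 and 1133 CPM. PC3 went from 261, 275 and 225 CPM to 620, 611 and 578 CPM. T47D went from 24.1, 24.5 and 32.8 CPM to 279, 316 and 286 CPM. The states were far apart in every line, and hypoxic replicates lay close together.

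T47D had the largest log2 fold change of SLC16A3, 3.36 (SE 0.22, edgeR adjusted p = 1.97e-06), followed by A549 with 3.01 (SE 0.15, edgeR adjusted p = 1.4e-07). HCT-116 had 1.86 (SE 0.21, edgeR adjusted p = 8.9e-05) and PC3 1.2 (SE 0.10, edgeR adjusted p = 0.000132). The fold changes were 10.2 (95% interval 7.38 to 14.2), 8.05 (6.39 to 10.1), 3.64 (2.65 to 5) and 2.3 (1.98 to 2.66). The gene shares 482 exon bases with CSNK1D on the opposite strand.

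The lines differed in their SLC16A3 response more clearly than for SLC2A1, with an interaction adjusted p of 2.9e-06. The effect in T47D exceeded that in PC3 by 2.18 on the log2 scale (SE 0.23, edgeR adjusted p = 1.81e-06) and that in HCT-116 by 1.45 (SE 0.23, edgeR adjusted p = 0.000384, 9.07% of all genes called). The effect in A549 exceeded that in PC3 by 1.77 (SE 0.23, edgeR adjusted p = 5.72e-05, 0.758% of all genes called) and that in HCT-116 by 1.03 (SE 0.22, edgeR adjusted p = 0.00535). HCT-116 exceeded PC3 by 0.73 (SE 0.22, edgeR adjusted p = 0.0294). A549 and T47D were not separated (−0.42, 95% interval −0.88 to 0.04, edgeR adjusted p = 0.437, 2.11% of all genes called). With the libraries numbered 1 left out, the SLC16A3 difference between A549 and HCT-116 had an adjusted p of 0.0634 and that between HCT-116 and PC3 0.171; with those numbered 2 left out, these were 0.078 and 0.498.

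In level, SLC16A3 ran from hypoxic HCT-116 (mean 1150 CPM ± 18.1, SD, n = 3) through hypoxic PC3 (603 CPM ± 22.2) and hypoxic A549 (434 CPM ± 27) to hypoxic T47D (293 CPM ± 19.5), and each of these neighbors differed. Hypoxic T47D stood at the level of normoxic HCT-116 (291 CPM ± 39, edgeR adjusted p = 0.961) and normoxic PC3 was next (254 CPM ± 25.9). Normoxic A549 (53.6 CPM ± 11.3) and normoxic T47D (27.2 CPM ± 4.92) were lower, and differed from each other by 0.98 on the log2 scale (edgeR adjusted p = 7.73e-06). The lines with the lowest normoxic SLC16A3 levels, A549 and T47D, were those with the larger fold changes, and a level and a fold change taken from the same normoxic libraries are not independent.

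SLC16A1 (MCT1, chr1:113454469-113500215 in GRCh37, minus strand) was not called in any line. In A549 it was at 90.0, 94.4 and 105 CPM in normoxia and 89.0, 107 and 118 CPM in hypoxia, with a fold change of 1.08 (95% interval 0.897 to 1.29, edgeR adjusted p = 0.518). PC3 held 197, 209 and 173 CPM in normoxia and 193, 196 and 189 CPM in hypoxia, with a fold change of 0.964 (interval 0.84 to 1.11, edgeR adjusted p = 0.675). The PC3 interval lies below the fold change of 1.2 that a call required, whereas the A549 interval extends past it. HCT-116 held 182, 130 and 179 CPM in normoxia and 255, 146 and 183 CPM in hypoxia, a wider scatter that leaves a fold change between 0.771 and 1.57. T47D was set apart by its level, 7.38, 4.47 and 10.3 CPM in normoxia and 10.1, 8.53 and 10.3 CPM in hypoxia, with an interval of 0.818 to 1.89. SLC16A1 in normoxic A549, the next lowest line (96.5 CPM ± 7.75), lay 3.33 above hypoxic T47D (9.62 CPM ± 0.952) on the log2 scale (edgeR adjusted p = 3.8e-12).

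Since SLC16A3 rose and SLC16A1 was not called, the ratio of their levels per length shifted in each line. The log2 ratio of SLC16A3 to SLC16A1 RPKM was −1.31, −1.69 and −1.23 in the normoxic A549 libraries and 1.64, 1.52 and 1.40 in the hypoxic libraries, a change of sign. PC3 also changed sign, from −0.13, −0.15 and −0.16 to 1.14, 1.10 and 1.07. In HCT-116 the ratio was already positive in normoxia (0.27, 0.38 and 0.25) and reached 1.65, 2.44 and 2.09. T47D had the highest ratio in both states, 1.17, 1.91 and 1.13 in normoxia and 4.25, 4.67 and 4.26 in hypoxia. The mean changed by 2.93 in A549, 1.76 in HCT-116, 1.25 in PC3 and 2.99 in T47D, and the states did not overlap in any line. With the longest transcript as the length, the normoxic PC3 ratio was 0.25 and A549 was the line whose mean changed sign.

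**Figure D4:**
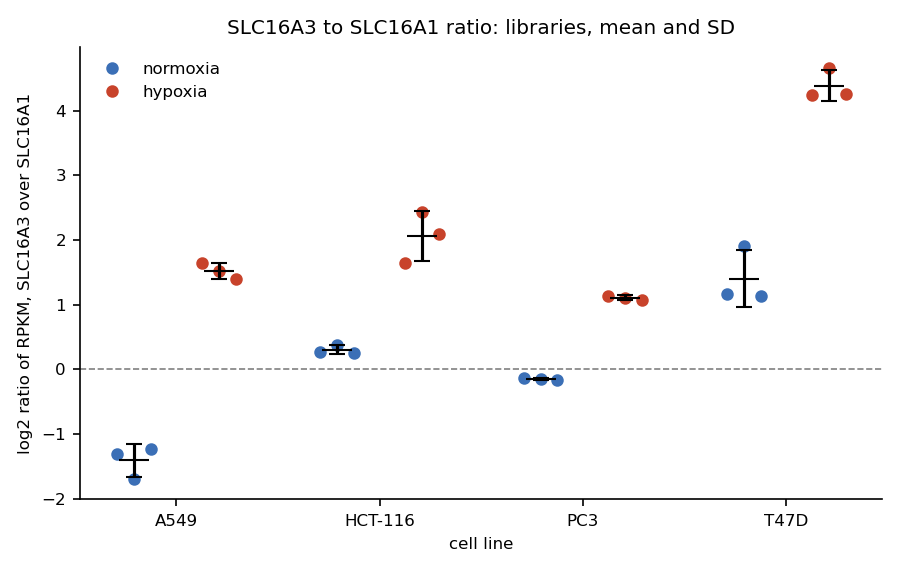
Log2 ratio of SLC16A3 to SLC16A1 RPKM in each library (points, 3 per group) with the mean and SD (black), by line; blue is normoxia and red hypoxia, and the dashed line marks equal levels. All hypoxic libraries lie above 0 and above every normoxic library of their line, with T47D the highest at a mean of 4.39.

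Within the SLC16A family of 14 genes, SLC16A3 made up 8.94% ± 1.74 of the summed RPKM in normoxic A549, 39.7% ± 1.5 in HCT-116, 37.4% ± 0.445 in PC3 and 12% ± 1.24 in T47D. In hypoxia these shares were 40.1% ± 1.12, 69.4% ± 3.46, 61.2% ± 1.3 and 60.2% ± 2.16. SLC16A1 held 23.4%, 32.4%, 41.4% and 4.74% of the sum in normoxia and 14%, 16.9%, 28.5% and 2.89% in hypoxia. A549 differed from the other lines in its SLC16A4, whose carried substrate is not well defined, at 71.5 CPM ± 8.52 in normoxia and 73.4 CPM ± 7 in hypoxia, against at most 1.88 CPM on average in any other group.

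The 12 other SLC16A genes and 2 sodium-coupled monocarboxylate transporters of the SLC5A family (SLC5A8 and SLC5A12) did not move in 1 direction. In A549, 3 of 11 tested were called upregulated and 0 downregulated, in HCT-116 2 of 9 upregulated and 4 downregulated, in PC3 0 of 8 upregulated and 4 downregulated, and in T47D 1 of 10 upregulated and 1 downregulated. DESeq2 gave the same counts, and at an unadjusted p under 0.05 there were 3 upregulated and 0 downregulated in A549, 2 and 5 in HCT-116, 1 and 4 in PC3, and 2 and 3 in T47D. The background of upregulated calls was 17.6%, 23.3%, 16.6% and 6.55% in A549, HCT-116, PC3 and T47D, and that of downregulated calls was 17.8%, 27.0%, 15.7% and 6.69% in these lines. SLC16A13, an MCT family member known from liver, was upregulated from 14 CPM ± 1.57 to 24.5 CPM ± 4.21 in A549, from 3.13 CPM ± 0.0487 to 6.7 CPM ± 0.926 in HCT-116 and from 4.27 CPM ± 0.569 to 9.41 CPM ± 0.597 in T47D. The log2 fold changes of SLC16A13 were 0.80, 0.98 and 1.06 (edgeR adjusted p = 0.00181, 0.00629 and 0.0133), the last not passing without normoxia replicate 1 (0.103).

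SLC16A14, a member of the same family without a well-defined lactate transport role, fell in 3 lines. It went from 23.2 CPM ± 0.655 to 13.5 CPM ± 2.37 in HCT-116, from 24.1 CPM ± 0.792 to 9.75 CPM ± 0.391 in PC3 and from 18.9 CPM ± 5.53 to 11.5 CPM ± 2.36 in T47D, with log2 fold changes of −0.89, −1.36 and −0.78 (edgeR adjusted p = 0.0024, 0.000132 and 0.0491). The T47D call of SLC16A14 was lost on leaving out any 1 library except hypoxia replicate 3 (highest adjusted p 0.186). SLC16A6 (MCT7), a ketone body carrier, was called in opposite directions: it rose from 9.1 CPM ± 1.43 to 33.1 CPM ± 7.43 in HCT-116 (log2 fold change 1.75, edgeR adjusted p = 0.000131) and fell from 2.09 CPM ± 0.628 to 0.615 CPM ± 0.279 in PC3 (−1.79, edgeR adjusted p = 0.00877). SLC16A7 (MCT2), a high-affinity lactate carrier, was called downregulated in HCT-116 (27.7 CPM ± 3.15 to 11.4 CPM ± 0.833) and PC3 (20.4 CPM ± 0.525 to 15.5 CPM ± 1.32), the latter call being lost without hypoxia replicate 1 or 3 (highest adjusted p 0.051).

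BSG (basigin, chr19:571277-583494 in GRCh37, plus strand) rose less than SLC16A3 in fold, from a high level. In A549 it was at 519, 472 and 579 CPM in normoxia and 843, 855 and 917 CPM in hypoxia. HCT-116 went from 454, 401 and 513 CPM to 899, 892 and 781 CPM. Both lines showed no overlap between states, with a log2 fold change of 0.73 (SE 0.11, edgeR adjusted p = 0.000622) in A549 and 0.79 (SE 0.20, edgeR adjusted p = 0.00609) in HCT-116. In PC3, BSG was at 414, 464 and 415 CPM in normoxia and 528, 535 and 499 CPM in hypoxia, states that did not overlap, and the log2 fold change of 0.22 was not called (fold change 1.17, 95% interval 1.02 to 1.34, edgeR adjusted p = 0.0781).

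In T47D, BSG was at 243, 231 and 350 CPM in normoxia and 442, 441 and 592 CPM in hypoxia. The replicates numbered 3 were the high ones in both states. In the fit without pairing, the log2 fold change of 0.77 just missed the threshold (fold change 1.7, 95% interval 1.19 to 2.44, edgeR adjusted p = 0.0516). Same-numbered T47D libraries deviated together, and a fit blocked by replicate, which called BSG, gave an adjusted p of 0.0212. It was 0.0239 without normoxia replicate 3 and 0.011 with DESeq2, and its highest value over the 15 alternatives was 0.237. The interaction of line and hypoxia did not pass for BSG (adjusted p = 0.137). States that do not overlap were found for BSG in all 4 lines, where 48.1%, 60.3%, 51.4% and 32.5% of all tested genes had them in A549, HCT-116, PC3 and T47D.

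BSG exceeded SLC16A3 per length in each group, and the gap narrowed in hypoxia. BSG was at 118 RPKM ± 12.1 and SLC16A3 at 5.81 RPKM ± 1.23 in normoxic A549, against 197 RPKM ± 9.03 and 46.9 RPKM ± 2.92 in hypoxia. The ratio of SLC16A3 to BSG RPKM went from 0.0485 to 0.238 in A549, from 0.305 to 0.643 in HCT-116, from 0.281 to 0.553 in PC3 and from 0.0477 to 0.288 in T47D. The libraries of the 2 states did not overlap in this ratio in any line.

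**Figure D5:**
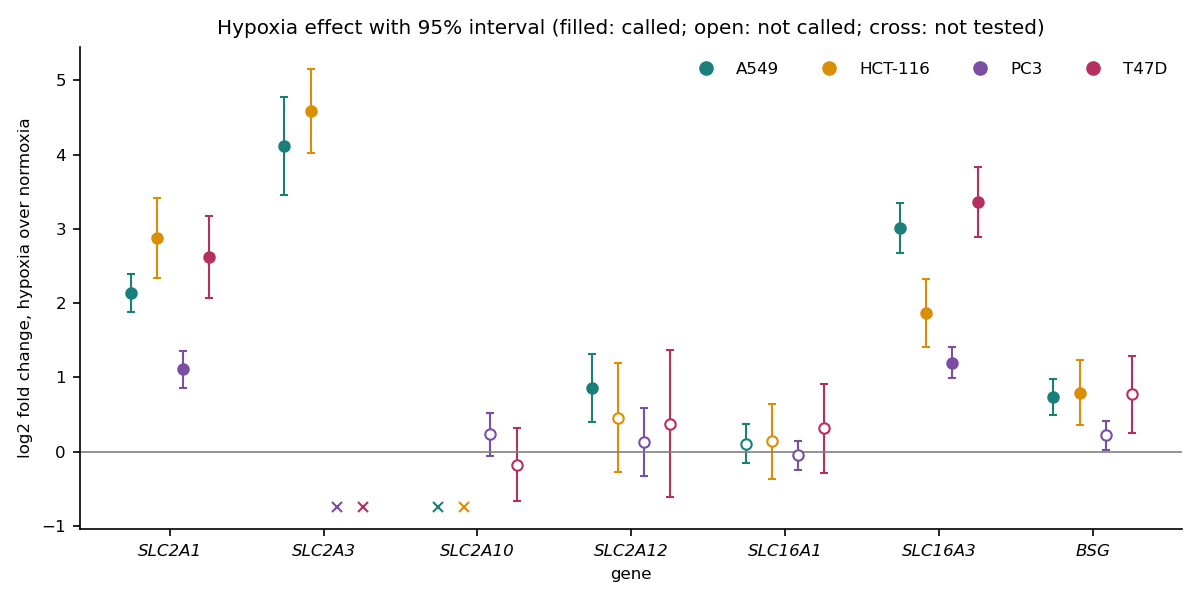
Log2 fold change in hypoxia over normoxia with its 95% interval (y axis) for each gene (x axis) and line (color), from the edgeR fit of each line. Filled points were called, open points were not, and crosses mark genes that did not pass the filter; SLC2A3 reaches 4.12 and 4.59, and PC3 has the lowest value among the lines for SLC2A1, SLC16A3 and BSG.

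Differences in level between lines were common in both states. Among the 5 genes tested in every line, compared in 6 pairs of lines, 22 of 30 differences were called in normoxia and 25 of 30 in hypoxia, which has to be read against the calls over all genes. In normoxia, 65.0% of all genes were called between A549 and HCT-116, 60.5% between A549 and PC3, 67.7% between A549 and T47D, 66.0% between HCT-116 and PC3, 69.0% between HCT-116 and T47D and 68.1% between PC3 and T47D. In hypoxia these shares were 60.1%, 62.7%, 67.5%, 60.6%, 68.0% and 68.8%. SLC2A3 and SLC2A10 were left out of these counts after the data were seen, because they passed the filter of the joint fit through the lines where they were present. With them, 31 and 35 of 42 were called, including SLC2A3 between hypoxic PC3 and T47D, where both lines were near 0. Of the 30 differences in hypoxia effect among the 5 genes, 8 were called, 5 for SLC16A3 and 3 for SLC2A1. Over all genes, 16.7%, 0.758%, 2.11%, 14.9%, 9.07% and 2.25% were called for the hypoxia effect, with the pairs of lines in the same order.

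Genes with the most similar pattern over the 24 libraries were found by Pearson correlation of log2 CPM, which is descriptive since libraries of a group share line and oxygen state. SLC2A1 was most like ENO2 (r = 0.96), a glycolytic enolase, NDRG1 (r = 0.95) and USP11 (r = 0.95). SLC16A3 was most like TMEM45A (r = 0.97), RAP2B (r = 0.94) and ZNF264 (r = 0.93). BSG was most like GAPDH (r = 0.97), TPI1 (r = 0.96) and GPI (r = 0.96), which encode glycolytic enzymes, and among the 7 genes BSG was closest to SLC2A1 (r = 0.93). The genes most like SLC2A10 (TXNIP, r = 0.99), SLC2A3 (MTUS1, r = 0.96), SLC16A1 (PLAGL1, r = 0.99) and SLC2A12 (CAMK2D, r = 0.96) share with them a difference between lines.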

How the data were processed

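PolyA RNA was sequenced from directional libraries of 4 established cell lines. The authors trimmed reads with Trim Galore, aligned them to GRCh37 with HISAT2, removed non-unique fragments with Picard and counted them per UCSC gene with HTSeq in intersection-strict mode. The deposited values are raw counts per gene symbol; the strand setting is not given in the sources used here. Antisense overlaps and SLC2A3 reads shared with SLC2A14 are therefore uncertain.

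From these counts, each line was fitted with edgeR 4.0.16 in R 4.3.3 (filterByExpr, TMM, glmQLFit and glmQLFTest, no covariate), with Benjamini-Hochberg adjustment over all tested genes. Line differences came from 1 fit of 8 groups and 24 libraries. DESeq2 1.42.0 was an alternative, as were other scaling, filters, thresholds, a replicate block and leaving out libraries. Levels are TMM-scaled CPM; log2 levels used a prior count of 2. RPKM used GENCODE v44lift37 union exon lengths. The fits were tested on simulated data.

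Groups and replicate numbers came from the sample labels. Deviations of same-numbered T47D libraries correlated at 0.15, 0.33 and 0.30, so the numbers were taken to pair them. The main T47D fit nevertheless left this pairing out, and the replicate block was run as an alternative. In the other lines at least 1 number stayed under 0.1. Of the 7 genes all are described. Of the other lists, genes called in 3 or more lines in 1 direction, or in opposite directions in 2 lines, are named, and likeness named the 3 highest correlations among genes with a mean log2 CPM of at least 1. The genes and lists were chosen with earlier results of these data known. A floor of 3 counts per library covers counting error only, since reads carried no molecular identifiers.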

Additional observations from a re-analysis of the deposited data

Results flagged for a closer look

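The hypoxia effect on SLC16A3 differed between the 4 lines by the test of the interaction itself (edgeR quasi-likelihood F test over 24 libraries, adjusted p = 2.9e-06), with log2 fold changes of 3.36 in T47D, 3.01 in A549, 1.86 in HCT-116 and 1.2 in PC3. The same test gave an adjusted p of 0.000572 for SLC2A1, with 2.88 in HCT-116, 2.62 in T47D, 2.14 in A549 and 1.11 in PC3. All 3 hypoxic libraries lay above all 3 normoxic libraries in each line for both genes. States did not overlap, in either direction, for 48.1%, 60.3%, 51.4% and 32.5% of all tested genes in A549, HCT-116, PC3 and T47D. What underlies the difference between lines in either gene was not tested.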

How the results depend on the processing

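SLC2A1 and SLC16A3 were called upregulated in all 4 lines under all 15 alternatives, as were SLC2A3 and BSG in A549 and HCT-116. SLC2A12 in A549 was called under 14 of 15. SLC16A1 was not called under any, but its sign turned in A549 with scaling to total counts (log2 fold change −0.01) and in HCT-116 without hypoxia replicate 1 (−0.06, in a leave-one-out range up to 0.32, reached without hypoxia replicate 2). Scaling to total counts moved the median of all genes to −0.13 in A549 and −0.12 in T47D. The members called in T47D rose from 2 to 4 in the fit of all 24 libraries, which added BSG and SLC2A3. SLC2A3 had not passed T47D's own filter (0 counts in normoxia, and 16, 1 and 4 in hypoxia) and entered that fit through A549 and HCT-116, so its call there is void and 3 remain. Interactions passed for 2 genes, but for 1 without the libraries numbered 2.

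Counts over all genes moved more. Genes called up and down in A549 were 2452 and 2476, and became 1398 and 1144 at a fold change over 1.5, 1438 and 1296 at an adjusted p under 0.01, and 1427 and 1182 in the fit of all libraries. Leaving out 1 A549 library gave 1642 to 2702 up and 1467 to 2629 down, lowest without normoxia replicate 2. In HCT-116, 3170 genes called up became 2002 at an adjusted p under 0.01. In PC3, 2237 up and 2109 down became 1019 and 892, 977 and 572, and 867 and 425 under the same 3 settings, and 1308 to 2629 up and 875 to 2732 down with 1 library left out, both lowest without hypoxia replicate 1. In T47D, 922 up and 942 down became 308 and 108 at an adjusted p under 0.01 and 2231 and 1599 in the fit of all libraries. Leaving out 1 T47D library gave 180 to 1549 up and 19 to 1756 down, both lowest without normoxia replicate 1. The replicate block called 1281 genes up and 1485 down in T47D and, of the 7 genes, changed only the call of BSG there. In the other lines pairing by number was partial or weak. Same-numbered libraries were each other's closest match for number 1 in A549 (r = 0.21), numbers 1 and 2 in HCT-116 (0.29 and 0.23) and all 3 in PC3 (0.08 each). The block called 2507 and 2495 genes up and down in A549, 3653 and 4031 in HCT-116 and 2349 and 2238 in PC3. The causes were not tested.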

Other observations

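Of 6 enzymes and carriers on either side of these transporters, 3 were called upregulated in each line, with 6 tested in A549, HCT-116 and PC3 and 5 in T47D. The background was 17.6%, 23.3%, 16.6% and 6.55% of all tested genes in A549, HCT-116, PC3 and T47D. HK1 and HK2, the hexokinases that trap imported glucose, and LDHA, which makes lactate, were the 3 genes in all 4 lines. Called downregulated were 1, 2, 0 and 1 of the list, against 17.8%, 27.0%, 15.7% and 6.69% of all tested genes. HK2 had a log2 fold change of 4.60 in A549, 3.61 in HCT-116, 0.88 in PC3 and 3.03 in T47D. LDHA went from a mean of 456 to 3990 CPM in T47D, from 2839 to 7727 in A549, from 1223 to 4978 in HCT-116 and from 3375 to 5322 in PC3. HK1 had 1.13, 2.86, 1.12 and 0.76 in A549, HCT-116, PC3 and T47D, and its T47D call (edgeR adjusted p = 0.049) was lost on leaving out replicate 1 or 2 of either state. LDHB, the lactate dehydrogenase subunit associated with lactate oxidation, was near 0 in T47D (at most 0.0309 CPM on average) and between 453 and 2003 CPM in the other groups. MPC2, a subunit of the mitochondrial pyruvate carrier, fell in HCT-116 (87.4 to 35.5 CPM, log2 fold change −1.43) and T47D (401 to 163 CPM, −1.38, lost without normoxia replicate 1). The other calls were MPC1 in HCT-116 (26 to 8.58 CPM, −1.72) and LDHB in A549 (2003 to 1591 CPM, −0.34, lost without replicate 1 or 2 of either state). LDHB, MPC1 and MPC2 were singled out after their values were seen.

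TXNIP, an arrestin-like protein that promotes removal of GLUT1 from the cell surface, had a mean of 36.5 CPM in normoxic and 181 CPM in hypoxic T47D (log2 fold change 2.23, edgeR adjusted p = 4.31e-05), and 136 and 112 CPM in PC3 (−0.33, edgeR adjusted p = 0.0293, not passing without hypoxia replicate 1 or 2 or normoxia replicate 1). It had 0 counts in all 6 HCT-116 libraries and at most 5 in any A549 library. Its paralog ARRDC4 was also called in opposite directions, at 18.9 against 8.87 CPM in hypoxic and normoxic T47D (1.01, 0.0599 was the adjusted p without normoxia replicate 1) and 11.2 against 5.59 CPM in HCT-116 (0.89), but 5.35 against 10.4 CPM in PC3 (−1.01). EMB and NPTN, which encode the basigin relatives embigin and neuroplastin, and GIPC1, which binds the tail of GLUT1, were not called in any line except EMB in PC3 (log2 fold change −0.48, edgeR adjusted p = 0.0115). DESeq2 also called GIPC1, in HCT-116. Of the 5 genes of this list, 0 of 4 tested were called in A549, with 1 at an unadjusted p under 0.05 (GIPC1) and 0 by DESeq2. In HCT-116 1 of 4 was called upregulated (23.3% of all tested genes), in PC3 3 of 5 downregulated (15.7%) and in T47D 2 of 5 upregulated (6.55%), with none in the other direction. In A549, 17.6% of all tested genes were called upregulated and 17.8% downregulated.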
